A study of Mus musculus with 2 samples.

Results

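The EGF receptor family and its ligands were described in hair follicle stem cells, which sit in the bulge of the follicle and renew its growing part in each hair cycle. The genes were taken by symbol from the deposited expression table. They are 3 receptor genes (Egfr, Erbb2 and Erbb3) and 7 ligand genes (Hbegf, Epgn, Tgfa, Areg, Btc, Ereg and Egf), each on 1 gene ID, or 10 of 42392 gene IDs in all. The rule goes by gene symbol and sets no threshold on a level. The library described is 1 of 2 samples of the series. It was made from cells of female mouse skin in anagen II-III, the early growth phase of the follicle. The other sample, in telogen, the resting phase, was not analysed here, because no column of the table carries a name that fits it alone. Both samples have the genotype K15-CrePGR; Shh+/-, were treated with RU486 for 8 days and are titled controls. In K15-CrePGR, a keratin 15 promoter drives a Cre recombinase that RU486 activates. The labels do not give the age of the mice or how many contributed to the library. Sorted cells were positive for integrin alpha 6 and CD34 and negative for SCA1 and for a set of non-epidermal surface proteins. The anagen library stands alone without replicates. Its values therefore have no error, and whether neighbours in an order of levels differ beyond their spread cannot be judged. Its column was matched to the sample only by the number 1, which stands in the column name and in the sample title.

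Receptors of this family are single-pass membrane proteins with a tyrosine kinase inside the cell. A ligand brings receptors together as dimers, which then signal through the Ras and ERK cascade and through PI3K and AKT. The ligands are made as membrane-anchored precursors, and metalloproteinases of the ADAM family cut them free. Neighbouring cells can thus signal to each other, and a cell can signal to itself. In the mouse, mutations of Tgfa and of Egfr give wavy coat hair and curled whiskers, and the receptor is well known as a regulator of keratinocyte growth and of hair follicle development.

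Sequence upstream of 4 of the genes is shown to set the gene with the highest level (Egfr) beside ligand genes of a cluster on chromosome 5, of which Epgn and Areg had similar levels and Btc a lower one. Ereg, which lies in the same cluster, had no entry in the table used. The 250 bases before the annotated start were taken from RefSeq promoter sequences of GRCm38.p6 and are written 5′ to 3′ in the direction of the gene. Capitals mark a match to any of 4 motifs, searched on both strands. These were TGACGTCA, the cyclic AMP response element, TGANTCA, the AP-1 site, GGGCGG, the GC box, and TATAAA, the core of a TATA box. No match overlapped another.
Egfr, chr11:16751953-16752202, plus strand: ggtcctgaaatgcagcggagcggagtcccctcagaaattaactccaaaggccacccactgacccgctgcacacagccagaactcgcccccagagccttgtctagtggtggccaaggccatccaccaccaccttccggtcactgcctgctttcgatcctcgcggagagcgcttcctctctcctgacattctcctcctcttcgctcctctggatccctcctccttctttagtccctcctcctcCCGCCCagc
Epgn, chr5:91027267-91027516, plus strand: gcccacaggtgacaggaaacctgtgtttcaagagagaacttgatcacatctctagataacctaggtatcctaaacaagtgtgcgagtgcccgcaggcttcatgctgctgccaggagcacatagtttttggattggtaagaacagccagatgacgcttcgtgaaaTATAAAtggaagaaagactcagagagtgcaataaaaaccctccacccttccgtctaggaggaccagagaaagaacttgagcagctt
Areg, chr5:91139349-91139598, plus strand: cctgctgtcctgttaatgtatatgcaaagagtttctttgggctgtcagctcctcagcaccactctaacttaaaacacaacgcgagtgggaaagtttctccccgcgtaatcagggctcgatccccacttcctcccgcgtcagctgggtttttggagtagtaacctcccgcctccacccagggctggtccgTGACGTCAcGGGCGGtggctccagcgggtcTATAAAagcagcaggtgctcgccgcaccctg
Btc, chr5:91402995-91403244, minus strand: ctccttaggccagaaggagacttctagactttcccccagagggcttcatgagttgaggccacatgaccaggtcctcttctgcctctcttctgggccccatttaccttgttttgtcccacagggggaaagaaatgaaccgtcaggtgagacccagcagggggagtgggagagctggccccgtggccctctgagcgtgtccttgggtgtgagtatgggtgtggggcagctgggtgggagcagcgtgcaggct

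The Egfr sequence held a GC box 9 to 4 bases before the start and no TATAAA. The Areg sequence held a cyclic AMP response element 61 to 54 bases before the start, followed by a GC box at 52 to 47 bases and by TATAAA at 31 to 26 bases. The Epgn sequence held TATAAA 86 to 81 bases before the start, and the Btc sequence held none of the 4 motifs. Of the 10 genes, 7 had an entry in the table of promoters. The other sequences with an entry were those of Tgfa, with 2 GC boxes, and of Erbb2 and Egf, with no match. The Tgfa entry is counted from a later start than that of the gene span given below, so most of its bases lie inside that span. Over 32851 promoter sequences of this length in the table, TGACGTCA was found in 1.55%, TATAAA in 12.4%, TGANTCA in 6.75% and GGGCGG in 32.7%. The share of G and C was 60.8% for Egfr, 66.0% for Erbb2, 69.2% for Tgfa, 59.6% for Btc, 57.2% for Areg, 50.4% for Egf and 46.8% for Epgn, against a median of 52.4% over all these sequences. A match to such letters is a description of the sequence and not a measured binding site.

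All 3 receptor genes were expressed, and all 7 ligand genes were lower than the lowest receptor gene. Levels are given in TPM, a relative abundance of transcripts that divides by gene length and by the total of the library. Levels of different genes can thus be set side by side, though the annotation behind the lengths is not known. The receptor genes summed to 75.3 TPM and the ligand genes to 10.3 TPM, a ratio of 7.29, or 4.52 with 1 TPM added to each gene. The receptor sum includes Erbb2, which has no known ligand of its own, and Erbb3, a receptor for neuregulins. The ligand sum holds no neuregulin, so the ratio does not set receptors against their own ligands. Rescaling without mitochondrial genes and the 50 highest genes multiplies every level by 1.73, and rescaling over nuclear protein-coding genes by 2.09, with no effect on ratios. In all, 7 of the 10 genes reached 1 TPM, the level counted here as expressed, and 56.1% of the 20723 nuclear protein-coding genes did so. At 5 TPM the count was 4 of 10, against 42.5% of protein-coding genes, and at 10 TPM it was 3 of 10, against 31.9%. The counts were thus not far from the background of all coding genes. The 3 genes at 10 TPM or more were the receptor genes, Hbegf joined them at 5 TPM, and Epgn, Tgfa and Areg at 1 TPM. The median over the 10 genes was 1.45 TPM, against 2.45 TPM over all protein-coding genes. Between the highest and the lowest of the 10 lay a factor of 321.5, or 34.2 with 1 TPM added to each gene.

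**Figure D1:**
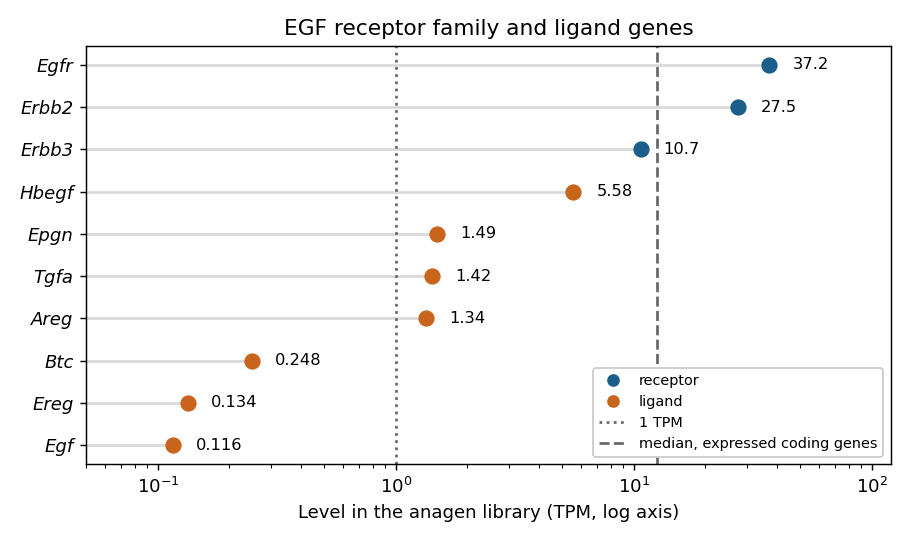
Level of each of the 10 genes in the anagen library, in TPM on a log axis, with receptor genes in blue and ligand genes in orange. The dotted line marks 1 TPM and the dashed line the median of protein-coding genes at or above 1 TPM, 12.5 TPM; the receptor genes lie between 10.7 and 37.2 TPM and the ligand genes between 0.116 and 5.58 TPM.

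Egfr, the receptor that binds all 7 of these ligands, was the highest of the 10 genes. It stood at 37.2 TPM (ENSMUSG00000020122, chromosome 11, 16752203 to 16913907, GRCm38, the build also called mm10). Its level was above that of 88.7% of protein-coding genes, and of 79.9% of those at 1 TPM or more. Egfr alone held 49.3% of the summed receptor level.

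Erbb2, a receptor with no known ligand of its own that serves as the partner of the others, stood at 27.5 TPM (ENSMUSG00000062312, chromosome 11, 98412484 to 98437716). Egfr was 1.35-fold above it. Erbb2 held 36.5% of the receptor sum and lay above 84.7% of protein-coding genes. Its annotated span shares 9 bases with that of Mien1, which stood at 39.2 TPM.

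Erbb3, a receptor for neuregulins whose own kinase is very weak and which signals chiefly through its partners, stood at 10.7 TPM (ENSMUSG00000018166, chromosome 10, 128567523 to 128589635). It held 14.2% of the receptor sum. Egfr was 3.48-fold and Erbb2 2.57-fold above it. Its level exceeded that of 69.3% of all protein-coding genes and of 45.2% of those at 1 TPM or more, so it was the only receptor gene of the 3 below their median of 12.5 TPM.

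Hbegf, which encodes the heparin-binding ligand of EGFR and ERBB4, was the highest ligand gene at 5.58 TPM (ENSMUSG00000024486, chromosome 18, 36504927 to 36515805). It held 54.1% of the summed ligand level and was the only ligand gene above 5 TPM. Erbb3, the next gene above it, was 1.91-fold higher, and Egfr was 6.66-fold higher. Hbegf was above 58.9% of all protein-coding genes, but above 26.7% of those at 1 TPM or more.

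The genes Epgn, Tgfa and Areg lay close together just above 1 TPM and jointly held 41.1% of the ligand sum. Epgn, which encodes epigen, a ligand of EGFR made in epithelia, stood at 1.49 TPM (ENSMUSG00000035020, chromosome 5, 91027517 to 91035212). Tgfa, which encodes transforming growth factor alpha, stood at 1.42 TPM (ENSMUSG00000029999, chromosome 6, 86195038 to 86275744). Areg, which encodes amphiregulin, a heparin-binding growth factor of keratinocytes, stood at 1.34 TPM (ENSMUSG00000029378, chromosome 5, 91139599 to 91148432). The highest of these was 1.11-fold above the lowest, a difference for which no replicate error is at hand. Each was above less than 5% of the protein-coding genes at 1 TPM or more, with shares of 4.65% for Epgn, 4.12% for Tgfa and 3.29% for Areg. Hbegf was 3.75-fold above Epgn, 3.93-fold above Tgfa and 4.17-fold above Areg.

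The ligand genes Btc, Ereg and Egf were below 1 TPM and together held 4.82% of the ligand sum. Btc, which encodes betacellulin, stood at 0.248 TPM (ENSMUSG00000082361, chromosome 5, 91357261 to 91402994). Ereg, which encodes epiregulin, stood at 0.134 TPM (ENSMUSG00000029377, chromosome 5, 91074617 to 91093649). Both proteins bind EGFR and ERBB4. Egf, the gene of the founding ligand, was lowest at 0.116 TPM (ENSMUSG00000028017, chromosome 3, 129677574 to 129755322). Hbegf was 48.3-fold above Egf, or 5.90-fold with 1 TPM added to each gene. These 3 genes still lay above 36.3%, 33.1% and 32.3% of all protein-coding genes, many of which were listed at or near 0. The read depth behind TPM is unknown, so no detection limit could be set for them.

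**Figure D2:**
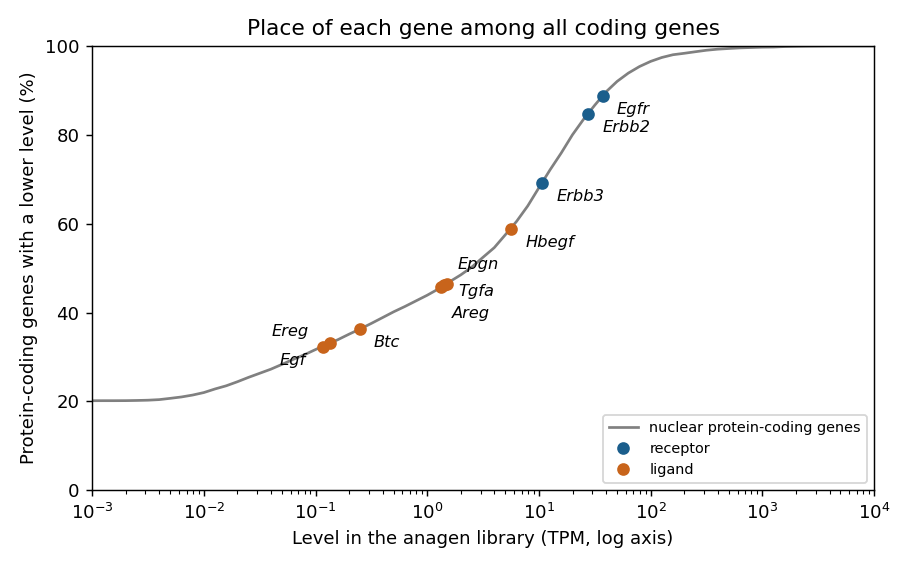
Share of nuclear protein-coding genes with a lower level (vertical axis, %) at each level in the anagen library (horizontal axis, TPM, log axis), as a grey line, with the receptor genes in blue and the ligand genes in orange. Egfr, Erbb2 and Erbb3 lie at 88.7%, 84.7% and 69.3%, Hbegf at 58.9%, Epgn, Tgfa and Areg near 46%, and Btc, Ereg and Egf between 32.3% and 36.3%.

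Of the 7 ligand genes, 4 lie next to each other on chromosome 5, in the order Epgn, Ereg, Areg and Btc over 375 kb. RefSeq places no other protein-coding gene between them. Gaps of 39.4 kb separate Epgn from Ereg, 45.9 kb Ereg from Areg, and 209 kb Areg from Btc. Their levels did not follow this order. Ereg, which lies between the 2 more highly expressed genes, was lowest, with Epgn 11.1-fold and Areg 9.98-fold above it, or 2.19-fold and 2.06-fold with 1 TPM added to each gene. Btc, the farthest gene, was exceeded 5.40-fold by Areg and 6.0-fold by Epgn, or 1.87-fold and 1.99-fold with 1 TPM added. The annotated span of Ereg shares 319 bases with a long noncoding RNA gene, Gm19610, which has no value of its own under that symbol. The receptor genes Egfr and Erbb2 share chromosome 11 but lie far apart on it. The span of Egfr also holds the noncoding gene Egfros, at 0.145 TPM. Egfr also shares 11057 bases with the noncoding gene Gm39584, Hbegf 613 bases with Gm41698 and Egf 1565 bases with 6330410L21Rik. These noncoding genes have no value under their symbols. Erbb3 shares 61 bases with the microRNA gene Mir6917, which was listed at 0.

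**Figure D3:**
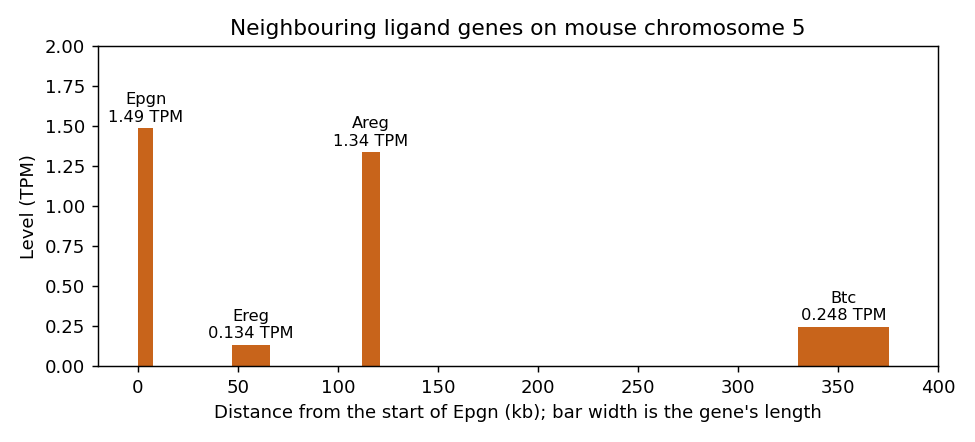
Level (vertical axis, TPM) of the 4 neighbouring ligand genes against their distance from the start of Epgn (horizontal axis, kb), with each bar as wide as the gene. Epgn and Areg stand at 1.49 and 1.34 TPM, and Ereg, between them, and Btc, at the far end, at 0.134 and 0.248 TPM.

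The remaining receptor gene and the neuregulin genes were below 1 TPM, all 5 of them, as were 43.9% of all protein-coding genes. Erbb4, a receptor for neuregulins and for several EGF ligands, stood at 0.00424 TPM and was the lowest of the family. Nrg4, which encodes a ligand of ERBB4, stood at 0.839 TPM. Nrg1, whose product binds ERBB3 and ERBB4, stood at 0.668 TPM and Nrg2 at 0.405 TPM. Nrg3 was listed at 0. Under either rescaling given above, Nrg4 and Nrg1 would pass 1 TPM, so the count of 5 below it depends on the scaling. The median of this list was 0.405 TPM, against 27.5 TPM for the 3 receptor genes Egfr, Erbb2 and Erbb3 and 1.34 TPM for the 7 ligand genes.

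Among all 58 receptor tyrosine kinase genes, a list added after the values were seen, Egfr came 11th, Erbb2 13th, Erbb3 17th and Erbb4 54th. At least 1 TPM was found for 34 genes of that list, and its median was 3.24 TPM. Both were close to the protein-coding background, where the share at this threshold was 56.1% and the median level 2.45 TPM. Fgfr3, a fibroblast growth factor receptor, led the list at 255 TPM, followed by Ephb6 at 129.9 TPM. Of the other fibroblast growth factor receptor genes, Fgfr2 and Fgfr1 stood at 112 and 110.2 TPM, but Fgfr4 at 0.318 TPM. Egfr was 4.60-fold above Met, the receptor of hepatocyte growth factor, which stood at 8.09 TPM.

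**Figure D4:**
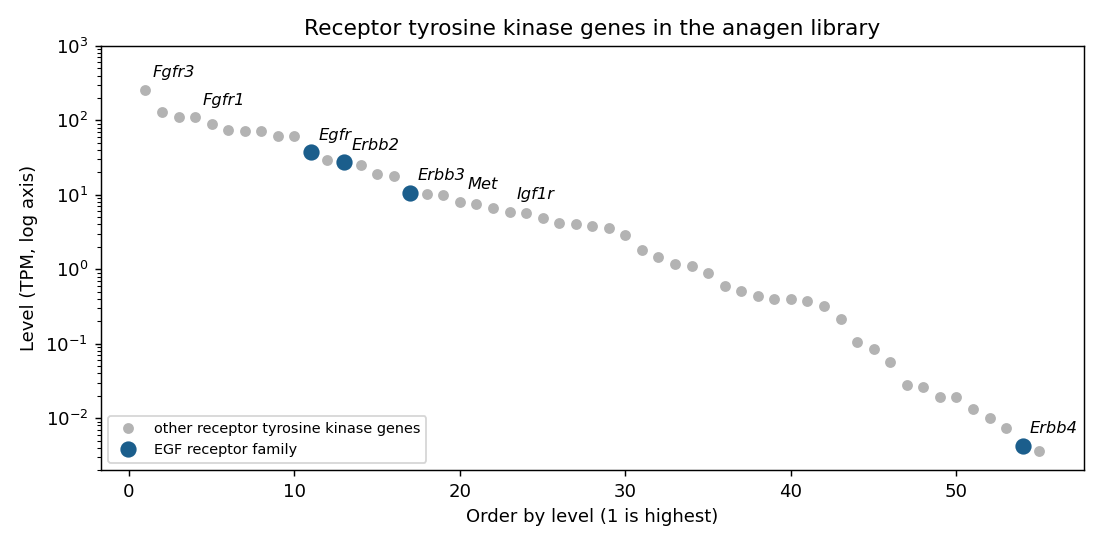
Level (vertical axis, TPM, log axis) of receptor tyrosine kinase genes in order of level (horizontal axis), with the EGF receptor family in blue and the other genes in grey; the genes at 0 cannot be drawn on this axis. Egfr at 37.2 TPM, Erbb2 at 27.5 TPM and Erbb3 at 10.7 TPM are among the 17 highest, and Erbb4 at 0.00424 TPM is near the end.

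Genes of ligand shedding and processing form a list that holds proteases, their helpers, an inhibitor and an export factor. Of its 14 genes, 12 were at 1 TPM or more, against 56.1% of all protein-coding genes, and the median was 20.5 TPM. Timp3, which encodes an inhibitor of the shedding enzymes, was highest at 282 TPM. Rhbdf1, which encodes iRhom1, a protein that helps to bring ADAM17 to the cell surface, stood at 56.8 TPM. Furin, which encodes a protease that activates ADAM precursors, stood at 53.9 TPM. Cnih1, a relative of the fly gene cornichon, which is needed in Drosophila to export an EGF receptor ligand, stood at 32.1 TPM. The lowest were Adam19 at 0.551 TPM and Adam12 at 0.391 TPM. The sheddase genes best known for these ligands, picked out after their values were seen, were Adam10 at 26.2 TPM and Adam17 at 13.9 TPM. Either was above each of the 7 ligand genes.

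Genes of receptor brakes and turnover, a list in which not every gene is a brake, were expressed in all 21 cases. Their median was 11.8 TPM. Of all protein-coding genes, 56.1% reached 1 TPM. Lrig1, which encodes a membrane protein that promotes breakdown of EGFR family receptors, was highest at 93.0 TPM, or 2.50-fold above Egfr. Epn1, which encodes an endocytic adaptor, stood at 71.8 TPM and Ptpn1, a tyrosine phosphatase gene, at 49.7 TPM. Errfi1, which encodes MIG6, an inhibitor that binds the EGFR kinase, stood at 36.2 TPM, close to Egfr itself at a ratio of 0.974. The lowest were Socs2 at 1.61 TPM and Ptprj at 1.06 TPM. Lrig1 also marks the upper follicle and stands in the list of that region given below.

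Adaptor and cascade genes were expressed with few exceptions. Their counts are to be read against the 56.1% of all protein-coding genes at 1 TPM or more, since the lists hold many genes that most cells express. Of 17 adaptors and effectors, 16 were at or above 1 TPM (median 20.2 TPM). The kinase gene Src stood at 70.6 TPM, the phospholipase gene Plcg1 at 48.1 TPM, the transcription factor gene Stat3 at 45.6 TPM and the adaptor gene Crk at 43.5 TPM. Vav2 at 3.29 TPM and Gab2 at 0.346 TPM were lowest. All 13 genes of the Ras and ERK cascade were at 1 TPM or more, and their median was 40.8 TPM. Hras stood at 251 TPM, the Ras inhibitor gene Rasa1 at 101 TPM, Mapk3, which encodes ERK1, at 92.1 TPM and Map2k2 at 72.7 TPM, while the kinase gene Braf at 6.12 TPM and the scaffold gene Ksr1 at 1.52 TPM were lowest. For PI3K and AKT, 10 of 11 genes were at 1 TPM or more and the median was 18.9 TPM. They were led by Akt1 at 91.4 TPM, Pik3r2 at 61.6 TPM, Akt2 at 44.3 TPM and Pik3r1 at 31.1 TPM, and Inpp5d at 0.583 TPM was lowest.

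Feedback inhibitors and genes that ERK can induce were expressed in every case. All 11 feedback inhibitors were at 1 TPM or more, around a median of 16.3 TPM. The phosphatase gene Dusp1 stood at 117 TPM, the ERK phosphatase gene Dusp6 at 47.3 TPM, Spred1 at 45.4 TPM and Dusp7 at 17.4 TPM, with Spred3 at 1.65 TPM and Spry4 at 1.05 TPM lowest. All 18 inducible genes were at 1 TPM or more, and their median was 41.0 TPM. Fos, Jun, Egr1 and Junb stood at 237, 233, 219 and 124 TPM, and Plaur and Fosl1 at 3.42 and 1.61 TPM. These genes respond to many signals besides EGF receptors. RNA levels of 1 library measure neither receptor phosphorylation nor ERK activity. Over all 8 pathway lists, 101 of 110 genes were at 1 TPM or more and the median was 18.4 TPM, against 56.1% and 2.45 TPM for all protein-coding genes. The lists hold many genes that most cells express.

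**Figure D5:**
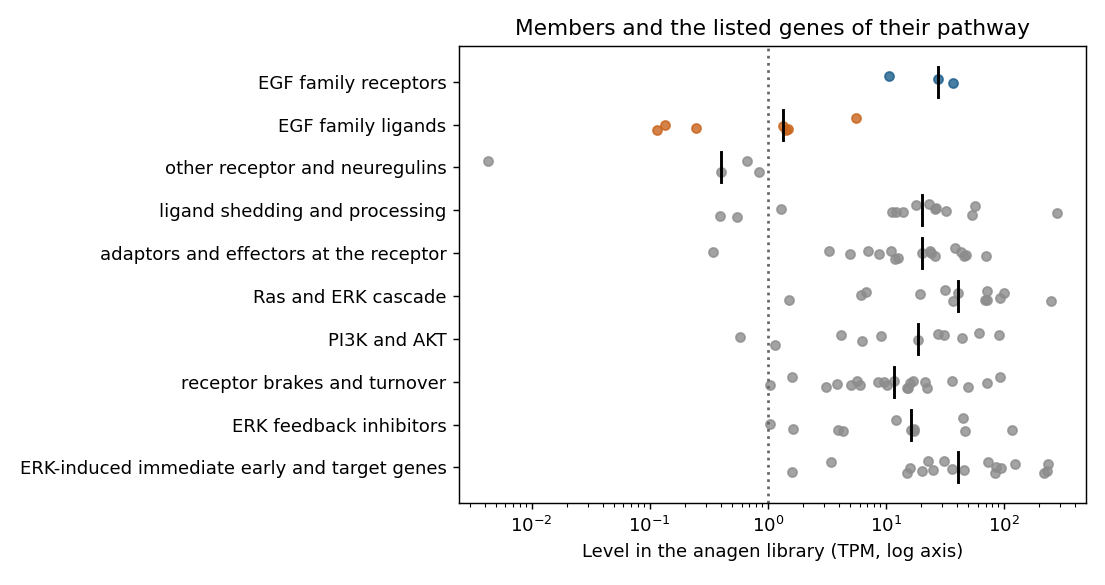
Level (horizontal axis, TPM, log axis) of the receptor genes in blue, the ligand genes in orange and the genes of 8 pathway lists in grey, 1 point per gene, with black bars for the medians and a dotted line at 1 TPM; a gene at 0 cannot be drawn on this axis. The medians are 27.5 TPM for the receptor genes, 1.34 TPM for the ligand genes and 0.405 TPM for Erbb4 with the neuregulin genes, and between 11.8 and 41.0 TPM for the other lists.

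The label of the library was checked against markers, since in a bulk sample a few cells of another type and a low level in every cell cannot be told apart. All 12 bulge genes were above 10 TPM, a level reached by 31.9% of all protein-coding genes, with Krt15 at 3364 TPM and Col17a1 at 398 TPM highest. They include Itga6 and Cd34, whose proteins the cells were sorted on, so for these genes the check was not independent of the sort. Genes that mark other cells had values too, and their counts are to be read against the 56.1% of all protein-coding genes at 1 TPM or more. At least 1 TPM was reached by 11 of 12 suprabasal genes (sum 1508 TPM, led by Krtdap and Sbsn), 12 of 13 inner root sheath, matrix and shaft genes (sum 287 TPM, led by Krt71 and Hoxc13) and 7 of 12 upper follicle and sebaceous genes (sum 627 TPM, led by Defb6 and Krt79). The same held for 9 of 12 fibroblast genes (sum 911 TPM, led by Col3a1 and Col1a1), 8 of 10 melanocyte genes (sum 53.2 TPM, led by Mlana and Dct), 6 of 11 leukocyte genes (sum 40.5 TPM, led by Cd74 and Lyz2), 4 of 8 endothelial genes (sum 13.2 TPM, led by Plvap and Tek) and 6 of 10 Schwann and Merkel cell genes (sum 72.7 TPM, led by Pmp22 and Krt8). The leukocyte, endothelial, Schwann and Merkel, and upper follicle counts were near that background. The Merkel cell gene Atoh1 was listed at 0. The receptor genes, at 10.7 to 37.2 TPM, and the ligand genes, at 0.116 to 5.58 TPM, both lay within the range of the non-epithelial markers, which reached 287 TPM for Col3a1, 47.0 TPM for Pmp22, 13.2 TPM for Cd74 and 12.6 TPM for Mlana. Both also lay within the range of markers of other epithelial cells, which reached 769 TPM for Krtdap, 283 TPM for Defb6 and 51.3 TPM for Krt71. The part of any of these other cells, epithelial or not, in the levels of the 10 genes was not tested.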

How the data were processed

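RNA-seq of 1 anagen library was used. The deposited values are TPM, which the authors made per the file headers, with Bowtie2 2.2.9, RSEM 1.2.30 and mm10 named in the submitters' processing notes. No source used here gives the annotation, strand setting or filters. The other 11 of 12 columns of per-sample values were not used. TPM keeps no read depth, so intervals and detection limits could not be given, and a few abundant features lower all other values: mitochondrial genes held 18.8% and the 50 highest genes 41.6% of TPM. Each gene ID was used once. Symbols came from the table or a table of gene names (41523 of 42392 IDs matched), and gene types and positions from RefSeq on GRCm38.p6 (32657 IDs). A percentile is the share of 20723 nuclear protein-coding genes with a lower level, checked on simulated levels. No test was possible with 1 library.

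All 10 genes are named, with Erbb4 and the neuregulins, the 4 highest and 2 lowest genes of the other pathway lists, and the 2 highest markers of each cell type. A gene this rule would name is not reported here. The members and lists were chosen with earlier results of these data known. The list of receptor tyrosine kinases, Met, Adam10, Adam17 and the overlapping genes were added after seeing values. Python 3.11.15, pandas 2.3.3, numpy 2.4.6 and matplotlib 3.10.9 were used.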

Additional observations from a re-analysis of the deposited data

How the results depend on the processing

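Rescaling TPM without mitochondrial genes and the 50 highest genes multiplied every level by 1.73, and rescaling over nuclear protein-coding genes by 2.09. The summed receptor level became 130.5 and 158 TPM, the summed ligand level 17.9 and 21.6 TPM, and the median of the 10 genes 2.52 and 3.04 TPM. Ratios and the order of genes cannot change under such a factor, and 7 genes were at 1 TPM or more under both. The share of all protein-coding genes at 1 TPM or more also rises under such a factor and was not computed. The count was also 7 at 0.5 TPM or more. Of all protein-coding genes, 40.2% were below 0.501 TPM, against 43.9% below 1 TPM. The count was 4 at 5 TPM or more, a level reached by 42.5% of protein-coding genes. Over the 7 of the 10 genes at 1 TPM or more, the median was 5.58 TPM. The ratio of the receptor sum to the ligand sum was 6.86 with 0.1 TPM added to each gene and 4.52 with 1 TPM added. Of 19 ratios between single genes, none changed direction with 1 TPM added, while 4 shrank by more than 1.5 times with 0.1 TPM and 7 with 1 TPM, all of them ratios to or of Btc, Ereg or Egf. Each of the 10 genes stands on 1 row, so taking all rows as deposited could not change their values. Egfr ranked 8th among receptor tyrosine kinase genes without those of no or divergent kinase activity. No paired analysis was possible because 1 library was analysed, and for the same reason no replicate could be left out. How precisely the lowest levels were measured cannot be stated without read depth.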
